A study of Solanum lycopersicum with 12 samples.

Results

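EIN2 and the 4 EIN3-like genes EIL1, EIL2, EIL3 and EIL4 form the central relay of ethylene signalling in tomato, and their transcripts were followed here in ripening fruit of wild type and of the slnor mutant. The genes were taken by identifier from the count table: EIN2 is Solyc09g007870.3, EIL1 is Solyc06g073720.3, EIL2 is Solyc01g009170.4, EIL3 is Solyc01g096810.3 and EIL4 is Solyc06g073730.2. All 5 are in the table of 34075 genes, and all 5 passed the low-count filter that left 20070 genes for testing. They were chosen by name, with earlier results of these data known.

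Fruit of the cultivar Ailsa Craig was sequenced in 12 libraries, 3 in each of 4 groups. The groups were wild type (WT) and slnor, each at breaker, when the green fruit shows its first change of colour, and again 7 days later. The slnor plants carry a CRISPR mutation of NAC-NOR in the Ailsa Craig background, and their allele and number of lines are not stated in the labels. NOR encodes a NAC-family transcription factor that promotes ripening. Plants of both genotypes were raised in a greenhouse with controlled conditions, and the tissue is labelled only as fruit. The titles of the control libraries carry the word slnor beside WT, and the genotype label, which reads WT, was followed.

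Ethylene is bound by receptors in the membrane of the endoplasmic reticulum, which in the absence of the hormone keep the kinase CTR1 active. CTR1 holds EIN2 in check. When ethylene is bound this brake is released, and a part of EIN2 moves to the nucleus and promotes the EIN3-like transcription factors, a mechanism worked out in Arabidopsis. EIN3-like proteins activate ethylene response factor (ERF) genes and, in Arabidopsis, are marked for destruction by the F-box proteins EBF1 and EBF2, so that much of their control lies at the level of protein. Tomato fruit is climacteric, with a burst of ethylene at the onset of ripening, and silencing of EIN2 or of several EIL genes together delays or blocks ripening in tomato.

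Library totals ran from 50714230 to 69124795 counts, and the 5 genes received 6059 to 18046 counts each per library. Every library held transcripts of NOR (Solyc10g006880.3), at 955 to 978 CPM (counts scaled by library total and TMM factor) in WT and 776 to 896 CPM in slnor at breaker, and at 459 to 480 and 515 to 577 CPM 7 days later. Since a short CRISPR lesion can leave transcript abundance as it was, the NOR level is no check of genotype. The log2 fold change of NOR, slnor against WT, was −0.24 at breaker (adjusted p = 0.000563) and 0.23 at 7 days (adjusted p = 0.000705). With library totals in place of TMM the breaker value was −0.06 (adjusted p = 0.281). At breaker the summed CPM of 4 ripening fruit genes (E8, PG2a, RIN and Solyc03g031860.3) was 33428 to 34594 in WT and 14432 to 16276 in slnor. At 7 days it was 29125 to 29467 in WT and 15982 to 16061 in slnor, and all 4 genes had counts in every library.

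EIN2, the membrane protein that carries the signal from the receptors towards the nucleus, was higher in slnor than in WT at both stages. At breaker the 3 WT libraries stood at 166, 178 and 176 CPM and the 3 slnor libraries at 216, 229 and 207 CPM. At 7 days WT stood at 171, 167 and 171 CPM and slnor at 189, 186 and 195 CPM. Every slnor library lay above every WT library of its stage, and the gap was wider at breaker. The log2 fold change was 0.33 at breaker (SE 0.0394, adjusted p = 2.55e-06 by edgeR's quasi-likelihood test with Benjamini-Hochberg adjustment), or 1.253-fold. It was 0.16 at 7 days (SE 0.0394, adjusted p = 0.00187), or 1.121-fold. In bulk fruit RNA, fewer cells that express a gene and less of its RNA per cell cannot be told apart, and nothing in the labels says that replicates came from separate plants, so each p-value sets a difference against library spread that may be technical.

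EIL1, an EIN3-like transcription factor, kept a steady difference between the genotypes. Its CPM were 132, 142 and 133 in WT and 164, 173 and 167 in slnor at breaker. At 7 days they were 129, 134 and 133 in WT and 167, 165 and 168 in slnor. The 6 slnor libraries all lay above the 6 WT libraries, at either stage. The log2 fold change, slnor against WT, was 0.31 at breaker (SE 0.0366, adjusted p = 1.81e-06) and 0.33 at 7 days (SE 0.0366, adjusted p = 6.5e-07).

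EIL4, which lies next to EIL1 on chromosome 6 both in the order of the identifiers and in the RefSeq annotation of assembly SLM_r2.1, had the largest genotype difference of the 5 genes at each stage. In WT at breaker its libraries stood at 169, 181 and 186 CPM, and in slnor at 246, 253 and 244 CPM. At 7 days WT stood at 203, 194 and 194 CPM and slnor at 264, 268 and 272 CPM. No slnor library overlapped a WT library. The log2 fold change was 0.47 at breaker (SE 0.0373, adjusted p = 1.4e-08), or 1.384-fold, and 0.44 at 7 days (SE 0.0371, adjusted p = 2.25e-08), or 1.36-fold. The labels do not say how reads shared between similar EIL copies were assigned or whether strand was used, so the split of counts between EIL1 and EIL4 and among the other EIL genes is uncertain to that extent.

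EIL2, another EIN3-like gene, differed between genotypes at the later stage. At breaker its CPM were 125, 132 and 134 in WT and 114, 129 and 118 in slnor, and the ranges overlapped. At 7 days WT stood at 118, 112 and 115 CPM and slnor at 147, 138 and 149 CPM, with every slnor library above every WT library. The breaker log2 fold change of −0.12 (SE 0.0471) missed the threshold with an adjusted p of 0.0524, and the 7-day change was 0.33 (SE 0.047, adjusted p = 1.34e-05). The breaker value depends on the processing: it passed as a fall with RLE factors (adjusted p = 0.0384), with DESeq2 (adjusted p = 0.0311), with no low-count filter (adjusted p = 0.0453), and without WT breaker replicate 1 (adjusted p = 0.0292), slnor breaker replicate 2 (adjusted p = 0.00303) or slnor 7-day replicate 3 (adjusted p = 0.0482). With library totals alone its sign turned, to 0.06 (adjusted p = 0.309).

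EIL3, the remaining EIN3-like gene, was higher in slnor at breaker and lower in slnor at 7 days. Its CPM at breaker were 137, 133 and 134 in WT and 162, 174 and 166 in slnor. At 7 days they were 165, 163 and 168 in WT and 154, 147 and 154 in slnor. The libraries of the 2 genotypes did not overlap at either stage. The log2 fold change, slnor against WT, was 0.31 at breaker (SE 0.035, adjusted p = 9.13e-07) and −0.12 at 7 days (SE 0.0348, adjusted p = 0.00811). With library totals alone the 7-day value was −0.02 (adjusted p = 0.681), so this call depends on the scaling.

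**Figure D1:**
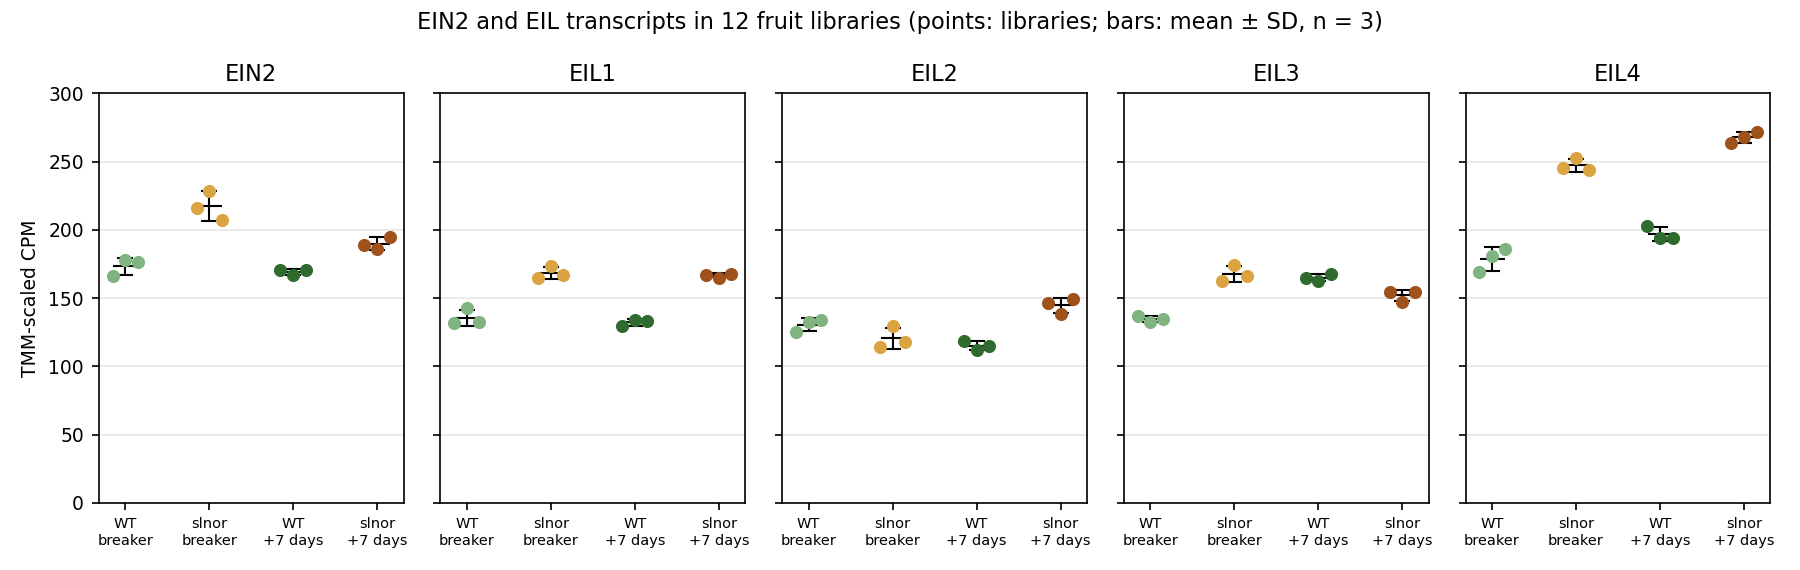
Each panel plots 1 gene, with the 4 groups along the x axis and TMM-scaled CPM on the y axis from 0; points are libraries and bars the mean ± SD of 3. EIN2, EIL1 and EIL4 stand higher in slnor at both stages, EIL2 stands higher in slnor at 7 days (145 ± 5.72 against 115 ± 3.26 CPM), and EIL3 stands higher in slnor at breaker (167 ± 5.92 against 135 ± 1.92 CPM) and in WT at 7 days (165 ± 2.69 against 152 ± 3.94 CPM).

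At breaker, then, 4 of the 5 genes were called higher in slnor and 0 lower, at an adjusted p under 0.05. Over all 20070 genes tested, 25.6% were called higher and 23.7% lower, 49.3% in all. The median log2 fold change was 0.315 over the 5 genes and 0.0222 over all genes, while the median size of change, without its sign, was 0.315 against 0.288. Calls were thus common in the whole table, and the changes of these genes were of ordinary size: 54.2% of genes tested changed by less than EIN2, 52.6% by less than EIL1, 53.0% by less than EIL3 and 66.2% by less than EIL4. At 7 days 4 of the 5 were called higher and 1 lower, against 28.5% and 27.4% of all genes, or 55.8% in all. The median size of change there was 0.331 for the 5 genes and 0.334 for all genes. The share of all genes whose libraries did not overlap between genotypes was not counted. EBF1 at breaker did not overlap either, yet was not called by the same edgeR test (adjusted p = 0.22).

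The directions of the genotype comparisons were also read with library totals in place of TMM, because TMM factors ran from 0.947 to 0.959 in WT and from 1.01 to 1.09 in slnor. Library totals alone raised the median over all genes by 0.175 log2 units at breaker, to 0.198, and by 0.0994 at 7 days, to 0.103. With them 42.1% of genes at breaker and 35.2% at 7 days were called higher in slnor. EIN2, EIL1, EIL3 and EIL4 stayed called higher at breaker, with log2 fold changes of 0.50, 0.49, 0.49 and 0.64, and EIN2, EIL1, EIL2 and EIL4 at 7 days, with 0.26, 0.43, 0.43 and 0.54. Library totals moved the log2 fold changes of all genes by nearly the same amount, here upward in slnor. Calls of higher could therefore hardly be lost, and these values are no check of them. Relative to the shifted medians they return to about the TMM size for the same reason.

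**Figure D2:**
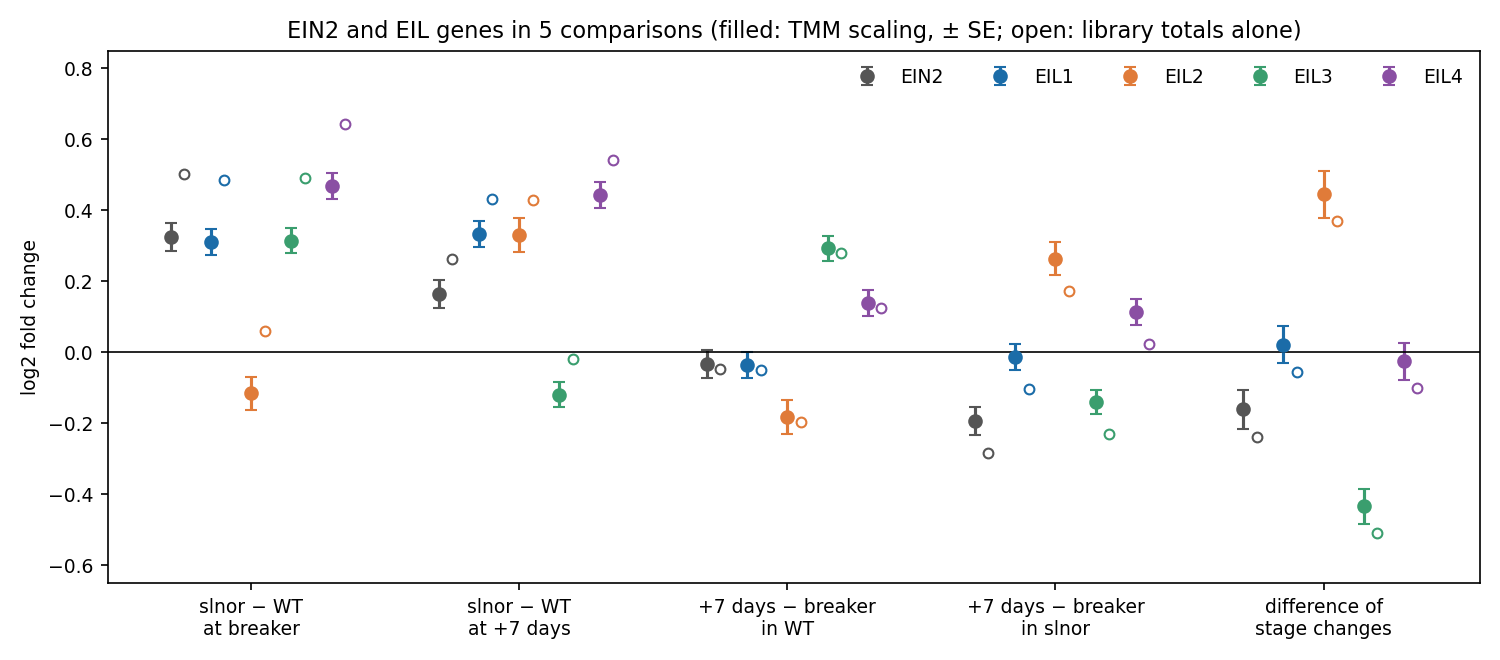
Log2 fold changes (y axis) of the 5 genes in the 5 comparisons (x axis), with filled points ± SE for TMM scaling and open points for library totals alone. EIL4 has the largest genotype difference at both stages (0.47 and 0.44), and the difference of the 2 stage changes is furthest from 0 for EIL2 (0.45) and EIL3 (−0.43), with opposite signs.

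From breaker to 7 days later in WT, EIL3 rose and EIL2 fell, while EIN2 and EIL1 were not called. EIL3 rose by 0.29 on the log2 scale (SE 0.035, adjusted p = 1.2e-06), or 1.226-fold, and EIL4 rose by 0.14 (SE 0.0373, adjusted p = 0.00347). EIL2 fell, at −0.18 (SE 0.0472, adjusted p = 0.00277). The values were −0.03 for EIN2 (adjusted p = 0.482) and −0.04 for EIL1 (adjusted p = 0.41), and for both the ranges of the stages overlapped. That made 2 of 5 called higher and 1 lower, where 33.2% of all genes were called higher and 32.1% lower, 65.3% in all. The 5 genes changed less with stage in WT than most: the median size was 0.14 against 0.447 for all genes, and only 4.64% of genes changed by less than EIN2, whereas 36.6% changed by less than EIL3.

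In slnor the same interval brought the opposite for EIL2 and EIL3. EIL2 rose by 0.26 on the log2 scale (SE 0.0469, adjusted p = 0.000154), and EIL3 fell, with −0.14 (SE 0.0348, adjusted p = 0.00281). EIN2 fell as well, with −0.19 (SE 0.0392, adjusted p = 0.000517), and EIL4 rose by 0.11 (SE 0.0369, adjusted p = 0.0157), while EIL1 stood at −0.01 (adjusted p = 0.783). Of the 5 genes 2 were called higher and 2 lower, where 26.2% of all genes were called higher and 26.0% lower, 52.2% in all. With library totals alone EIL4 was no longer called (0.02, adjusted p = 0.624) and EIL1 was called lower (−0.10, adjusted p = 0.0273).

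The difference between the 2 stage changes was tested directly as an interaction, slnor minus WT. It was 0.45 for EIL2 (SE 0.0666, adjusted p = 3.97e-05), −0.43 for EIL3 (SE 0.0493, adjusted p = 2.01e-06) and −0.16 for EIN2 (SE 0.0557, adjusted p = 0.0282). EIL1 stood at 0.02 (SE 0.0517, adjusted p = 0.775) and EIL4 at −0.03 (SE 0.0525, adjusted p = 0.746), so for these no difference between genotypes in the stage change was detected. The count was 1 higher and 2 lower of 5, against 21.8% and 20.4% of all genes, or 42.2% in all. EIL2 and EIL3 kept their calls in all 17 alternatives run for this term. EIN2 lost its call when any 1 of 7 libraries was left out: WT breaker replicate 1, slnor breaker replicates 1 and 2, WT 7-day replicates 1 and 3 and slnor 7-day replicates 1 and 2, with adjusted p between 0.0561 and 0.111.

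The ratio of EIL2 to EIL3 within a library does not depend on library scaling and shows the crossing of these genes directly; it was chosen after the values were seen and was not tested. Per kilobase, the ratio was 0.736, 0.803 and 0.802 in WT at breaker and 0.566, 0.598 and 0.571 in slnor at breaker. At 7 days it was 0.579, 0.554 and 0.549 in WT and 0.764, 0.754 and 0.778 in slnor. WT at breaker and slnor at 7 days shared the high range, and slnor at breaker and WT at 7 days the low one, with no library between. EIL4 against EIN2 in contrast moved with both genotype and stage, from a mean of 2.75 ± 0.058 in WT at breaker through 3.03 ± 0.094 in slnor at breaker and 3.10 ± 0.069 in WT at 7 days to 3.76 ± 0.074 in slnor at 7 days; the middle groups overlapped.

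Levels of different genes were compared per kilobase, as CPM divided by the gene length that the deposited values imply. In WT at breaker EIL4 was highest, at 96.0 ± 4.71 CPM per kilobase, followed by EIL1 (72.2 ± 3.18), EIL3 (65.5 ± 0.936), EIL2 (51.0 ± 1.90) and EIN2 (35.0 ± 1.25). The same order held in slnor at each stage, with EIL4 at 132.8 ± 2.60 and then 143.8 ± 2.22. In WT at 7 days EIL3 (80.2 ± 1.31) stood above EIL1 (70.4 ± 1.35). Neighbours in these orders did not overlap between libraries, except EIL2 (47.1 ± 3.06) and EIN2 (43.8 ± 2.18) in slnor at breaker. All 5 were well expressed: between 93.3% and 96.0% of tested genes lay below EIL4 on this scale, and between 80.4% and 85.4% below EIN2.

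The 4 EIL genes together gave 285 ± 7.40 CPM per kilobase in WT and 351 ± 10.7 in slnor at breaker, and 301 ± 2.89 in WT and 363 ± 5.43 in slnor at 7 days. At both stages the slnor libraries lay above all WT libraries (two-sided exact permutation test, p = 0.1, the smallest that 3 against 3 libraries allow). EIL4 held 33.7% ± 0.898 of the sum in WT and 37.9% ± 0.537 in slnor at breaker, and 35.1% ± 0.659 and 39.6% ± 0.647 at 7 days, again without overlap (exact p = 0.1 at each stage). EIL2 took 17.9% ± 0.241 in WT at breaker and 13.4% ± 0.458 in slnor at breaker (exact p = 0.1), with 14.9% ± 0.283 and 15.6% ± 0.407 at 7 days (exact p = 0.2). EIL3 took 23.0% ± 0.926 and 23.2% ± 0.166 at breaker (exact p = 0.9), and 26.6% ± 0.394 in WT against 20.4% ± 0.324 in slnor at 7 days (exact p = 0.1). The share of EIL1 stayed between 22.6% and 26.2% in all 12 libraries. These shares are free of library scaling, and with 3 libraries a group none of the 24 comparisons of shares, sums and ratios can reach an exact p of 0.05.

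**Figure D3:**
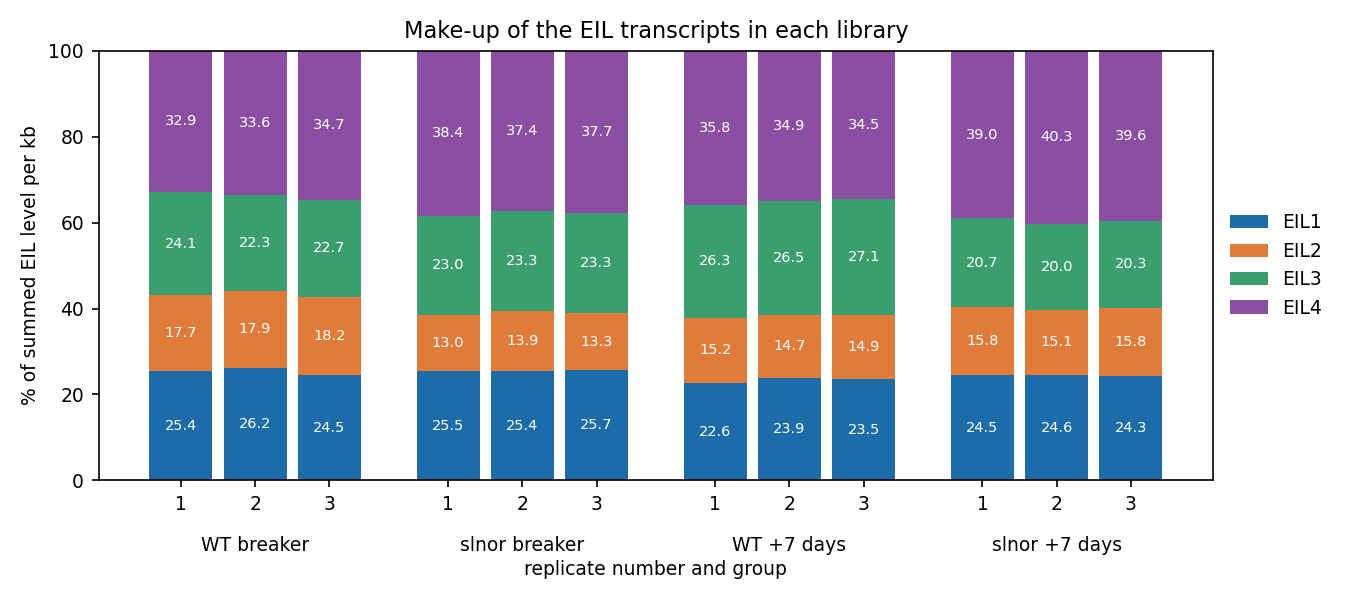
Stacked bars give, for each library (x axis, by group and replicate number), the share of each EIL gene in the summed EIL level per kilobase (y axis, percent, from 0 to 100). EIL4 is the largest share in every library and is larger in the slnor bars (37.4% to 40.3%) than in the WT bars (32.9% to 35.8%).

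Of the 5 genes, 4 varied less between the groups than the median gene of these fruits. Between the lowest and the highest of the 4 group means, on the log2 scale, EIL3 spanned 0.314, EIL2 0.329, EIL1 0.347 and EIN2 0.357. The median span of the 10975 genes with a mean of at least 10 CPM was 0.523, and only EIL4, at 0.583, lay above it. Over the 12 libraries, each gene centred on its own mean, the patterns of EIN2 and EIL1 were the nearest of the 10 pairs, with a root mean square difference of 0.082 in log2 CPM, and EIL2 and EIL3 were the farthest apart (0.224). EIL1 and its neighbour EIL4 differed by 0.111. Of the other genes with a mean of at least 10 CPM, 0.665% were nearer to EIL1 than EIN2 was, and 2.58% were nearer to it than EIL4.

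A list of 29 other genes of the ethylene pathway was tested in the same fit. Of its 25 genes whose names met no conflict with RefSeq, the one nearest in pattern by the same measure was the receptor gene ETR7 (Solyc05g055070.4) for EIN2 (0.119), EIL1 (0.108), EIL3 (0.113) and EIL4 (0.155). ETR7 stood at 78.8 ± 1.69 CPM in WT and 88.7 ± 2.73 in slnor at breaker, and at 83.7 ± 3.33 and 93.0 ± 0.0800 at 7 days. The measure takes in the size of changes, so nearness does not mean a shared direction. At 7 days ETR7 was called higher in slnor (log2 fold change 0.15), while EIL3 was called lower (−0.12). ETR7 was also second nearest to EIL2 (0.129). For EIL2 the nearest was the ethylene response factor gene ERF.E4 (Solyc01g065980.4, 0.0981). Among the other 10970 genes with a mean of at least 10 CPM, the nearest identifiers were Solyc07g053470.4 to EIL3 (0.0405), Solyc06g065460.2 to EIL1 (0.0444), Solyc04g025210.4 to EIN2 (0.0529) and Solyc07g007410.4 to EIL4 (0.0539). The one nearest to EIL2 was less near (0.0609) and is not named under the limit on identifiers. The stage change of these identifiers in WT was 0.27, −0.01, −0.03 and 0.11 on the log2 scale, in that order. The tables used give them no gene name.

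Upstream of EIN2, most receptor and CTR genes were not called higher at breaker, as was also true of most genes tested. Of 4 listed CTR genes 0 were called higher and 2 lower, and of 7 receptor genes 1 was called higher and 2 lower. At 7 days 1 CTR gene was higher and 3 lower, and 3 receptor genes were higher and 2 lower. The lower CTR genes at 7 days included 1 identifier whose listed name RefSeq places on another chromosome. Of all genes tested, 25.6% were called higher and 23.7% lower at breaker, and 28.5% and 27.4% at 7 days. Never-ripe (NR, Solyc09g075440.4), the receptor gene known for its induction in ripening fruit, fell from 1351 ± 19.4 CPM in WT to 746 ± 40.5 in slnor at breaker and from 1155 ± 17.3 to 840 ± 17.3 at 7 days. Its log2 fold changes were −0.86 (adjusted p = 2.37e-12) and −0.46 (adjusted p = 6.43e-09). CTR1 (Solyc10g083610.2), the kinase that restrains EIN2, stood at 101 ± 1.74 CPM in WT and 80.1 ± 2.95 in slnor at breaker (log2 fold change −0.34, adjusted p = 8.22e-07), and at 64.0 ± 1.41 and 71.3 ± 1.31 CPM at 7 days (0.15, adjusted p = 0.00222). At breaker, EIN2 was thus higher in slnor while CTR1 and NR were lower.

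EBF1 (Solyc12g009560.2), whose Arabidopsis counterpart targets EIN3-like proteins for degradation, stood at 524 ± 5.92 CPM in WT and 508 ± 6.36 in slnor at breaker (log2 fold change −0.05, adjusted p = 0.22, and 0.13 with library totals alone, adjusted p = 0.00102). At 7 days it was 348 ± 8.41 in WT and 373 ± 7.44 in slnor (0.10, adjusted p = 0.00801). EBF1 fell with stage in both genotypes, by 0.59 in WT and by 0.45 in slnor on the log2 scale. Solyc07g008250.3, listed beside EBF1 but under a name that RefSeq places on another chromosome, stood at 207 ± 11.6 and 273 ± 18.7 CPM at breaker and at 113 ± 1.95 and 199 ± 8.44 at 7 days, WT before slnor. Its log2 fold changes, slnor against WT, were 0.40 (adjusted p = 3.57e-06) and 0.82 (adjusted p = 4.58e-10).

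Among the listed ERF genes, most were higher in slnor at breaker. There 8 of 10 listed ERF identifiers were called higher in slnor and 0 lower, with a median log2 fold change of 0.945. Of all genes tested, 25.6% were called higher and 23.7% lower. The 10 identifiers were listed with earlier results of these data known, so the count does not describe ERF genes at large. ERF.E2 (0.07, adjusted p = 0.0507) and ERF.E4 (−0.03, adjusted p = 0.359) were not called. The largest was ERF.B3 (Solyc05g052030.1), which rose from 6.40 ± 0.261 CPM in WT to 27.7 ± 3.99 in slnor (log2 fold change 2.12, adjusted p = 4.77e-11). At 7 days 5 were higher and 4 lower, against 28.5% and 27.4% of all genes, with a median of 0.0981. ERF.B3 was again the largest rise (0.95, adjusted p = 6.13e-07). In the difference of stage changes 8 of the 10 were lower and 2 higher, against 20.4% and 21.8% of all genes. There ERF.A1 (Solyc08g078180.1), a low transcript at 0.544 to 3.14 CPM as group means, stood at −3.01 (adjusted p = 1.25e-05). ERF.A1 also had the largest fall of the pathway list with stage in slnor (−2.53, adjusted p = 1.14e-06), and Solyc05g052040.1, an identifier of the ERF list without a RefSeq name, had the largest rise with stage in WT (1.85, adjusted p = 3.88e-14).

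Of 3 listed genes of ethylene synthesis, 2 were called lower and 1, ACS4, higher in slnor at breaker, and all 3 were called lower at 7 days. Of all genes tested, 23.7% were called lower and 25.6% higher at breaker, and 27.4% lower at 7 days. The breaker value of ACS4 was 0.11 (adjusted p = 0.0129), and its call was lost with only the 6 libraries of the comparison (adjusted p = 0.0543), without WT breaker replicate 3 (adjusted p = 0.0628) and without slnor breaker replicate 2 (adjusted p = 0.0894). ACS2 (Solyc01g095080.3), which encodes an ACC synthase of ripening fruit, stood at 867 ± 15 CPM in WT and 227 ± 20.2 in slnor at breaker (log2 fold change −1.93, adjusted p = 7.06e-15), and was again the largest fall of the list at 7 days (−1.15, adjusted p = 2.93e-12). Its difference of stage changes, 0.78, was the largest called rise of the list (adjusted p = 6.98e-08). ACS4 (Solyc05g050010.3), another ACC synthase gene, rose most with stage in slnor (0.91, adjusted p = 1.24e-12), and ACO1 (Solyc07g049530.3), an ACC oxidase gene, fell most with stage in WT (−1.34, adjusted p = 2.6e-16). E4 and E8, genes known for their induction by ethylene in tomato fruit, were both called lower in slnor at both stages.

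Over the 29 listed genes, 11 were called higher and 8 lower in slnor at breaker, and 11 higher and 14 lower at 7 days. With stage, 11 rose and 10 fell in WT, and 10 rose and 12 fell in slnor. The interaction was called higher for 13 and lower for 9. Of all genes tested, 49.3% were called either way at breaker, 55.8% at 7 days, 65.3% with stage in WT, 52.2% with stage in slnor and 42.2% in the interaction. The median size of change of the list was 0.339 at breaker and 0.438 at 7 days, above the 0.315 and 0.331 of EIN2 and the EIL genes. With library totals alone the list count at breaker was 17 higher and 6 lower, where 42.1% of all genes were called higher.

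**Figure D4:**
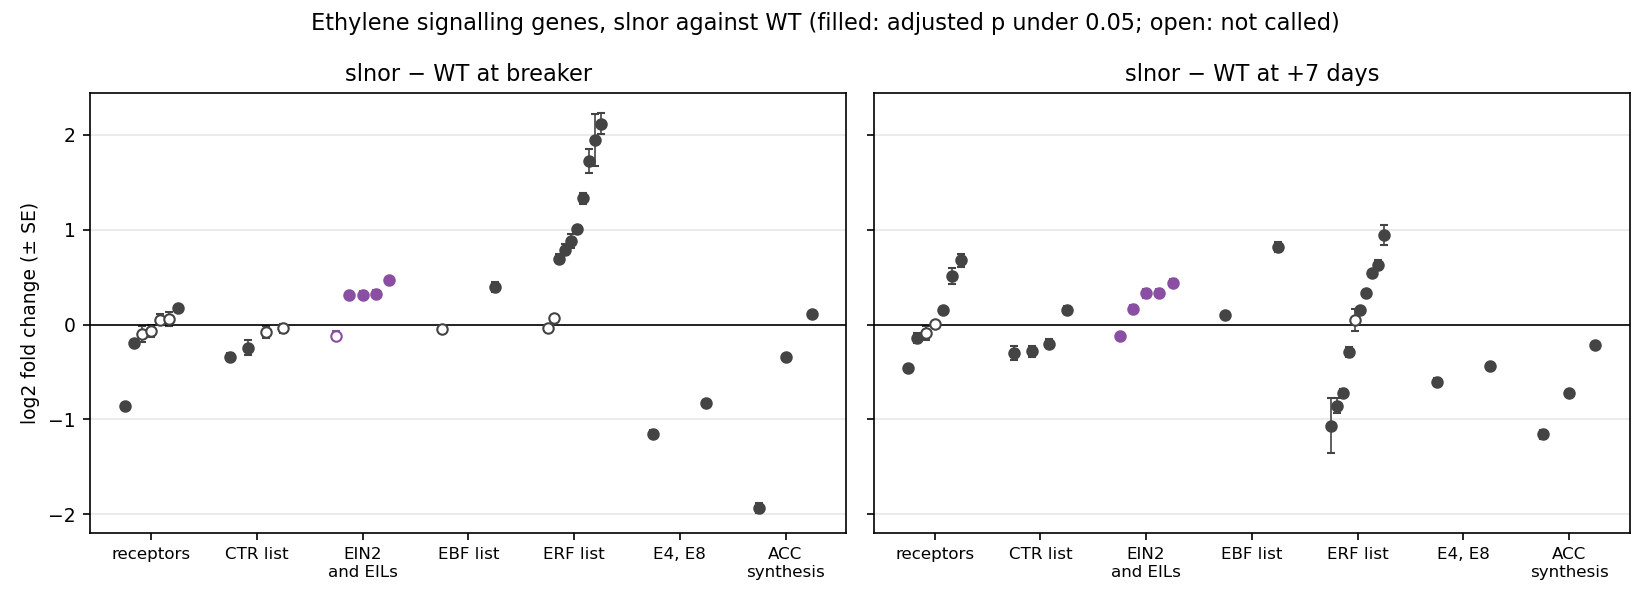
Log2 fold change ± SE (y axis), slnor against WT, at breaker (left) and 7 days later (right), for receptors, listed CTR genes, EIN2 and the EIL genes (purple), listed EBF genes, listed ERF genes, E4 and E8, and ACC synthesis genes (x axis); filled points have an adjusted p under 0.05. The purple points lie between −0.12 and 0.47, within the span from ACS2 (−1.93) to ERF.B3 (2.12) at breaker.

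Markers of other tissues also differed between the groups. Summed CPM of 3 epidermis genes were 286 to 301 in WT at breaker, 72.3 to 78.4 in slnor at breaker, 58.5 to 61.4 in WT at 7 days, where CD1 was at 0 in at least 1 library, and 110 to 117 in slnor at 7 days. Nearly all of this sum was CER6, at 292 ± 7.43 CPM in WT and 71.2 ± 2.75 in slnor at breaker (log2 fold change −2.04, adjusted p = 1.89e-16). The other epidermis genes were low and went the opposite way at breaker, CD1 from 0.741 ± 0.0700 to 2.58 ± 0.416 CPM (1.80, adjusted p = 4.8e-05) and GPAT6 from 0.377 ± 0.195 to 1.08 ± 0.200 CPM (1.52, adjusted p = 0.00913). At 7 days all 3 were called higher in slnor. For 3 green tissue genes the summed ranges were 481 to 516 CPM in WT and 456 to 499 in slnor at breaker, and 208 to 212 and 231 to 242 CPM at 7 days. Within that sum the genes moved apart: at breaker RBCS-2A was called higher in slnor (0.36, adjusted p = 5.96e-06), and Cab-1A (−1.63, adjusted p = 2.16e-09) and PSBO (−0.51, adjusted p = 5.24e-09) lower. At 7 days RBCS-2A (1.5, adjusted p = 3.55e-13) and Cab-1A (1.32, adjusted p = 1.27e-07) were higher and PSBO lower (−0.12, adjusted p = 0.0125). The single seed marker stood at 67.5 to 74.7 CPM in WT and 6.25 to 7.32 in slnor at breaker, and at 14.2 to 16.4 and 0.179 to 0.676 CPM at 7 days. The part of these markers in the differences of EIN2 and the EIL genes was not tested.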

How the data were processed

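Transcripts were counted in 12 fruit libraries, 3 per genotype and stage. The authors deposited raw counts, 1 whole number per gene and library. Their deposited per-library tables name no unit. The deposited values were read as FPKM, made by the authors from counts, gene lengths and library totals, because for 7290 genes with at least 1000 counts in each library the length implied by count, value and total differed between libraries by at most 0.421%. FPKM served only to obtain gene lengths. The submitters' processing notes list HISAT, UMI-tools, StringTie and edgeR, without versions or roles. Not given in the sources used here are genome build, annotation, strand setting and whether a count is a read or a molecule.

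Counts were analysed in R 4.3.3 with edgeR 4.0.16 (glmQLFit, glmQLFTest, TMM, filterByExpr), with all 12 libraries fitted together. After filtering, 20070 genes remained with 99.988% of counts. The common biological coefficient of variation was 7.39%, and 3.21% to 4.21% for the 5 genes. Adjusted p-values are Benjamini-Hochberg values over all genes tested, called under 0.05. CPM are TMM-scaled, as mean ± SD with n = 3. SE is the absolute log2 change over the square root of the F statistic. Replicates were not duplicates of each other: chi-square over its degrees of freedom was 4.655 to 14.18 for the 12 pairs. On simulated data for slnor against WT at breaker (19618 genes), 86% of genes changed by 0.5 and 100% of genes changed by 1 on the log2 scale were recovered, with 6 false calls. Only 100 genes were changed at each step, in both directions, and all genes had the common variation of 7.39%. In the data 49.3% of genes were called at breaker. The 5 genes changed by less than 0.5 there, so recovery at their size was not simulated.

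The genes and lists were chosen with earlier results of these data known. Text names follow a rule: the 5 genes, NOR, EBF1, the identifier listed beside it, CTR1, NR, the pathway gene with the largest called rise and fall in each comparison, and the nearest genes in pattern. Marker genes, the listed E4 and E8, ERF.E2 and ERF.E4 at breaker and ACS4 at breaker are named besides, the last 3 after their values were seen. The files pair no names with identifiers. The names of all 5 genes met no conflict in RefSeq. Of 29 pathway identifiers, 25 agreed in chromosome and rank (within 5% of the chromosome's genes) with RefSeq (SLM_r2.1), 3 conflicted and 1 had no RefSeq name. Those 4 are named by identifier only. Alternatives were library totals alone, RLE factors, DESeq2 1.42.0, no low-count filter, only the 6 libraries of a comparison, a replicate block, and each library left out. Sequences are not used here.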

Additional observations from a re-analysis of the deposited data

Results flagged for a closer look

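The change from breaker to 7 days differed between the genotypes for 3 of the 5 genes by the interaction term of edgeR's quasi-likelihood test. Of all 20070 genes tested, 42.2% were called for this term, so a call alone does not set these genes apart. The difference, slnor minus WT on the log2 scale, was 0.45 for EIL2 (adjusted p = 3.97e-05), where the gene fell in WT (−0.18) and rose in slnor (0.26). It was −0.43 for EIL3 (adjusted p = 2.01e-06), which rose in WT (0.29) and had a log2 fold change of −0.14 in slnor. For EIN2 it was −0.16 (adjusted p = 0.0282), with −0.03 in WT and −0.19 in slnor, and this call did not hold when certain single libraries were left out.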

How the results depend on the processing

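The 25 changes of the 5 genes were recomputed under 18 alternative settings each, or 17 for the interaction, most of which left out 1 library. Of the 445 recomputed values, 422 kept both direction and side of the threshold, 9 lost the call, 7 gained a call and 7 turned sign. For comparisons of 2 groups, part of these settings left out a library of neither group. Such a library acts only through the shared scaling, filter and spread, so the 422 are not independent checks. At breaker the number of the 5 genes called lower went from 0 to 1 with RLE factors, with DESeq2 and with no low-count filter, and ranged from 0 to 1 when single libraries were left out, EIL2 being the gene each time. With library totals alone the 7-day count of lower calls went from 1 to 0. The count of rises with stage in slnor went from 2 to 1 there. The count of pathway genes higher at breaker went from 11 to 17. The share of all genes called higher at breaker likewise went from 25.6% to 42.1%. The count of lower interactions ranged from 1 to 2 when single libraries were left out. Signs turned with library totals alone for EIL2 (0.0602) and EBF1 (0.130) at breaker and for the EIL1 interaction (−0.0537). When single libraries were left out, the stage change of EIL1 ranged from −0.0565 to 0.0012 in WT and from −0.0305 to 0.0064 in slnor, its interaction from −0.0150 to 0.0593 and the EIL4 interaction from −0.0558 to 0.0127. These turned without WT breaker replicate 2 (EIL1 in WT, EIL1 interaction), slnor breaker replicate 2 (EIL1 in slnor, and the EIL4 interaction at 0.0065) or WT breaker replicate 1 (EIL4 interaction). The breaker difference in share, in percentage points, ranged from −0.256 (without WT replicate 3) to 0.593 for EIL1 and from −0.163 (without WT replicate 2) to 0.712 for EIL3. None of these sign changes was of a called value, except that EBF1 at breaker became called. The cause was not tested.

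Samples with the same replicate number did not deviate together (correlations −0.0563 to 0.0607 over 18 pairs), so no pairing by number was detected. Whether equal numbers share plants or preparation is not stated in the labels. With the replicate number as a block, 9730 genes were called at breaker in place of 9900, and EIL2 stood at −0.12 (adjusted p = 0.0728); the block changed no call of the 5 genes. Each of the 5 genes had 6059 or more counts per library. How far depth and how far the 3 libraries per group set the precision was not tested.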
